A study of Homo sapiens with 2 samples.

Results

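The 10 genes described here are 4 subunits of the transcription factor NF-kB (NFKB1, NFKB2, RELA and RELB) and 6 genes that NF-kB is known to switch on: the inhibitors NFKBIA and TNFAIP3, the chemokines CXCL8 and CXCL2, and the cell survival and stress genes BIRC3 and IER3. They were picked by gene symbol, with CXCL8 picked by its Ensembl identifier, and make up 10 of the 61806 genes in the count table. HEL is a human erythroleukemia cell line that carries erythroid and megakaryocytic features. HEL cells labelled as wild type were cultured for 24 h with 0.5% DMSO, the vehicle, or with 1 µM L1, a synthetic derivative of diindolylmethane, and 1 mRNA library was sequenced for each condition. The labels give no DMSO percentage for the L1 culture. The comparison addresses how L1 alters gene expression in these leukemic cells.

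NF-kB is a family of dimeric transcription factors held in the cytoplasm by IkB proteins until a signal from a receptor such as a TNF, interleukin or Toll-like receptor activates the IkB kinases. The kinases mark IkB for destruction, the dimers enter the nucleus, and they bind kB sites near genes for chemokines, cytokines, survival factors and NF-kB's own inhibitors. In blood cells the pathway is known for driving inflammatory responses and for protecting cells from death, and the transcripts of its inhibitors form a feedback loop.

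The DMSO library held 32556872 counts and the L1 library 27135647, and the ratio of their effective sizes by edgeR's TMM method was 1.16. Levels are given as raw counts, as CPM (counts per 1000000, scaled by TMM), or as the FPKM values deposited by the authors, which are per transcript length. A log2 ratio is L1 over DMSO after TMM scaling, with an exact 95% Clopper-Pearson interval of the split of the gene's counts between both libraries. The intervals cover counting error only. No difference has a replicate check, no test was run, and the spread between cultures was not measured. Because the 10 genes were proposed with these ratios known, their ratios are a description. In a bulk library, a smaller number of cells of a type and less RNA per cell cannot be told apart.

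Of 12 erythroid and megakaryocytic marker genes, 11 had at least 10 counts and PF4 was at 0, and the list summed to 3354 CPM in DMSO and 3726 CPM in L1. Its genes had ratios on both sides of 0, from 1.78 for the fetal globin HBG1 (5620 and 16681 counts), whose reads may be split with its near-identical copy HBG2, to -1.08 for the platelet gene GP1BB (1177 and 480 counts). Monocyte and macrophage markers summed to 50.3 CPM in DMSO and 28.1 CPM in L1, with CD163 and MARCO at 0 in both libraries. Lymphoid markers summed to 5.31 and 4.17 CPM with 6 of 8 genes at 0, epithelial markers to 0.187 and 0.181 CPM with 3 of 4 genes at 0, and fibroblast and endothelial markers to 53.1 and 59.2 CPM with CDH5 at 0. A few genes, named after their counts were seen, carried most of these sums. KDR had 1585 counts in DMSO and 1566 in L1, while COL1A1 had 0 and 5. Of the monocyte list, VCAN had 924 and 278 counts and LYZ 647 and 486, while CD14 had 0 and 5. Both libraries come from cultures of the HEL cell line, and which cells these transcripts came from was not tested.

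RefSeq promoter windows (GRCh38.p14), reaching from 250 bases before to 50 bases after an annotated start, were present for 8 of the 10 genes, which have 12 windows among them, and were missing for RELB and IER3. Each window was searched on both strands for the kB decamer consensus and for the related 9-mer GGANNTTCC, which can overlap a decamer match. The 9-mer can also contain the letters GGAA, the core of sites bound by ETS factors. The stretches below are shown because they hold matches in the genes with the highest ratios and in the inhibitors and subunits. They read 5′ to 3′ along the gene's own strand, with the bases of any match in capitals and 25 flanking bases on each side.

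CXCL8 (chr4:73740453-73740511, plus strand) carried a 9-mer match and no decamer match, CXCL2 (chr4:74099238-74099298, minus strand) carried overlapping matches of both kinds, and BIRC3 (chr11:102317260-102317383, plus strand) carried 2 decamer matches.
CXCL8: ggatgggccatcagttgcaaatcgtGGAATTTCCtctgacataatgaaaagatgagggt
CXCL2: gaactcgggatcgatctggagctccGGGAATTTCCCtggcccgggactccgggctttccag
BIRC3: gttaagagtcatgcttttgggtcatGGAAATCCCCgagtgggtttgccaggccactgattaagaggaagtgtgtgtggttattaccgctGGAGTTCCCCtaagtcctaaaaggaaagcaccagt

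The inhibitors NFKBIA (chr14:35404796-35404855, minus strand) and TNFAIP3 (chr6:137867167-137867238, plus strand) and the subunit genes NFKB1 (chr4:102501285-102501344, plus strand) and NFKB2 (chr10:102394446-102394534, plus strand, at the middle of its 3 RefSeq starts) held decamer matches as well.
NFKBIA: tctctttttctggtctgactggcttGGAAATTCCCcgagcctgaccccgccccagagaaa
TNFAIP3: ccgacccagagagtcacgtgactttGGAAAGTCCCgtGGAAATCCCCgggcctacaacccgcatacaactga
NFKB1: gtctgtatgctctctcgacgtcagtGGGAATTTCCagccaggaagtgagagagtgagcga
NFKB2: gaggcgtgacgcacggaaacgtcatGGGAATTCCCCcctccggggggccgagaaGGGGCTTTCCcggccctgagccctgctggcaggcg

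Counted from the start, with negative positions before it, the CXCL8 match lay at -91 to -83, the CXCL2 matches at -78 to -68, and the BIRC3 matches at -199 to -190 and -135 to -126. The CXCL8 and CXCL2 matches lay within 100 bases of the RefSeq start. So did those of NFKBIA at -81 to -72, of TNFAIP3 at -67 to -58 and -55 to -46, and of NFKB1 at -49 to -40. The BIRC3 matches and a further 9-mer match of NFKBIA, at -242 to -234, lay farther away. The NFKB2 matches lay at -107 to -97 and -78 to -69 from its middle start. From its last start they lay at -176 to -167 and -21 to -12, and the only 9-mer match of NFKB2 is in the latter. The decamer was present in 6 of the 8 genes with a window and the 9-mer in 6 of 8, and 7 of 8 had at least one of them. Over all 27305 genes with a window, the decamer was present in 7.09%, the 9-mer in 5.57% and either in 11.1%. Over all 35116 windows, the shares for the decamer and the 9-mer were 5.91% and 4.56%. RELA, which has the highest level of the subunits, had no match in its windows, which says only that these letters are not in those 300-base stretches. A match describes the sequence and does not show that NF-kB is bound there in HEL cells.

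**Figure D1:**
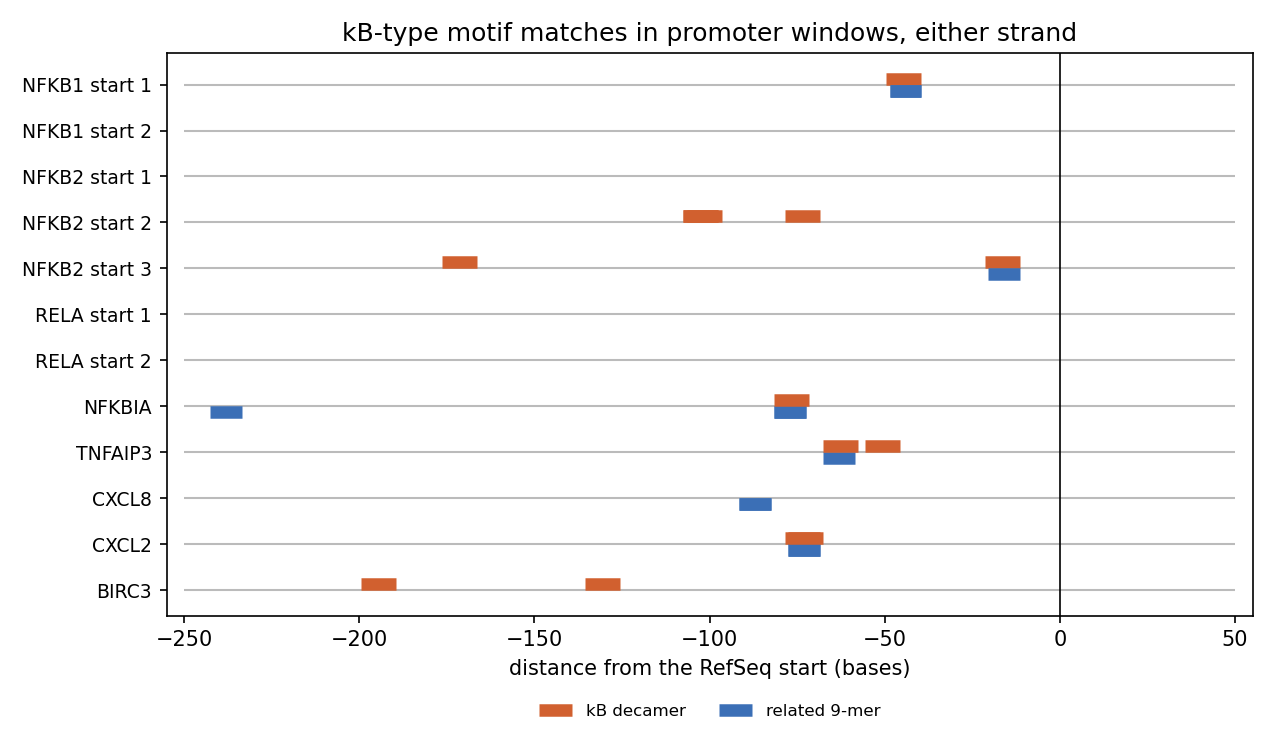
Matches of the kB decamer (orange) and the related 9-mer (blue) in the promoter windows of the 8 genes with a RefSeq entry, by distance from the start in bases. The gray lines are the 12 windows and the vertical line is the RefSeq start. All matches lie before the RefSeq start and most within 100 bases of it, while both RELA windows are empty.

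The chemokine CXCL8 (interleukin 8, ENSG00000169429, which attracts neutrophils) differed most between the libraries. Its count was 19 in DMSO, with a 95% Poisson interval from 11.4 to 29.7, and 128 in L1, with one from 107 to 152. These counts scaled to 0.594 and 4.64 CPM, a log2 ratio of 2.97 (95% interval 2.26 to 3.74), which is 7.81-fold (4.8 to 13.4). The intervals of the counts do not overlap, and the ratio stood at the 99.1 percentile of the genes kept, which are the 18123 genes that reached 10 counts in DMSO or in L1. CXCL8 was a low transcript even with L1, at the 37.0 percentile of CPM among those genes, from the 13.9 percentile in DMSO. CXCL8 has no FPKM value, since the FPKM files list genes down to 1.01 CPM and it was below that in DMSO. The gene lies on the plus strand of chromosome 4 at 73740506 to 73743716 (GENCODE release 29, GRCh38), and none of its 31-base words occurs in another gene's transcripts.

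CXCL2, a related neutrophil chemokine on the minus strand of the same chromosome (74097035 to 74099293), was counted 87 times in the DMSO library and 158 times with L1. The FPKM values were 1.96 and 4.12, and the log2 ratio was 1.07 (0.69 to 1.47). The value is uncertain, because 22.4% of its words also occur in transcripts of other genes, which include its close paralogs. CXCL1 was at 0 counts in both libraries and CXCL3 had 128 and 164 counts, and the sum of CXCL1, CXCL2 and CXCL3 gave a log2 ratio of 0.80 (0.54 to 1.05). The sum was higher in the L1 library, with an interval that includes 2-fold. The ratio of CXCL8 exceeded that of CXCL2 by 1.89 on the log2 scale (1.07 to 2.76), a difference that does not depend on how the libraries are scaled.

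BIRC3 (cIAP2, a ubiquitin ligase of the inhibitor of apoptosis family that acts in TNF receptor signaling) lies on chromosome 11 at 102317450 to 102339403 on the plus strand. Its 131 counts with DMSO and 252 with L1 correspond to FPKM values of 0.548 and 1.22. The log2 ratio was 1.16 (0.85 to 1.47), so the L1 level was 2.23-fold that of DMSO, and the ratio of CXCL8 exceeded it by 1.81 (1.03 to 2.65). On the log2(FPKM + 1) scale, which understates low genes, the BIRC3 difference was 0.52. IER3, an early response gene that modulates cell death (chromosome 6, 30743199 to 30744554, minus strand), had counts of 67 and 101, FPKM values of 1.56 and 2.73, and a log2 ratio of 0.81 (0.35 to 1.27). The exons of IER3 overlap those of the antisense gene IER3-AS1 by 359 bases. IER3-AS1 had 27 and 20 counts with a log2 ratio of -0.22 (-1.13 to 0.67), and the sum of both genes gave 0.58. Whether counting used strand is not given in the sources used here, so reads of IER3 and IER3-AS1 cannot be told apart.

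The feedback inhibitors had smaller ratios than the chemokines and BIRC3. NFKBIA, which encodes the IkB alpha protein that retains NF-kB in the cytoplasm (chromosome 14, 35401511 to 35404749, minus strand), had counts of 296 with DMSO and 328 with L1. Its FPKM values were 2.74 and 3.52, with a log2 ratio of 0.36 (0.13 to 0.59). TNFAIP3, which encodes the ubiquitin-editing enzyme A20 that shuts off signaling to the IkB kinases (chromosome 6, 137867188 to 137883312, plus strand), had 707 and 863 counts. Its FPKM values were 3.48 in DMSO and 4.92 in L1, with a log2 ratio of 0.50 (0.36 to 0.65), and its ratio minus that of BIRC3 was -0.66 (-1.0 to -0.31). The antisense gene WAKMAR2, with 74 and 89 counts, overlaps TNFAIP3 by 95 exon bases, and summing both left the ratio at 0.50. The intervals of NFKBIA and TNFAIP3 lie above 0 and their difference from each other includes 0.

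Among the 4 subunit genes, RELA had the highest level and the highest ratio, although its ratio is not separable from that of RELB. RELA encodes p65, the subunit with a strong activation domain in the classical dimer (chromosome 11, 65653596 to 65663094, minus strand). Its counts were 1829 with DMSO and 2403 with L1, its FPKM values were 10.5 and 16.1, and the log2 ratio was 0.61 (0.52 to 0.70), or 1.52-fold. RELA was the only one of the 4 subunit genes whose interval excludes 0. RELA-DT, a noncoding gene that overlaps RELA by 9 exon bases on the opposite strand, had 36 and 57 counts and a log2 ratio of 0.88, and summing it with RELA left 0.61.

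NFKB1, the precursor of the p50 subunit (chromosome 4, 102501329 to 102617302, plus strand), had counts of 1544 with DMSO and 1362 with L1. After scaling these were 48.2 and 49.3 CPM, a log2 ratio of 0.03 (-0.07 to 0.14). NFKB2, the precursor of p52 in the noncanonical branch (chromosome 10, 102394110 to 102402529, plus strand), had 807 and 739 counts, FPKM values of 4.55 and 4.83, and a log2 ratio of 0.09 (-0.06 to 0.23). RELB, the partner of p52 (chromosome 19, 45001430 to 45038198, plus strand), was the subunit with the fewest counts, 110 and 117, with FPKM values of 1.15 and 1.42 and a log2 ratio of 0.30 (-0.09 to 0.69). The counts do not set these 3 ratios apart from 0, and for RELB the interval still allows values up to 0.69. RELA differed from the genes of both precursors: the ratio of NFKB1 minus that of RELA was -0.57 (-0.71 to -0.44), and that of NFKB2 minus RELA was -0.52 (-0.69 to -0.35). The difference between RELA and RELB includes 0.

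**Figure D2:**
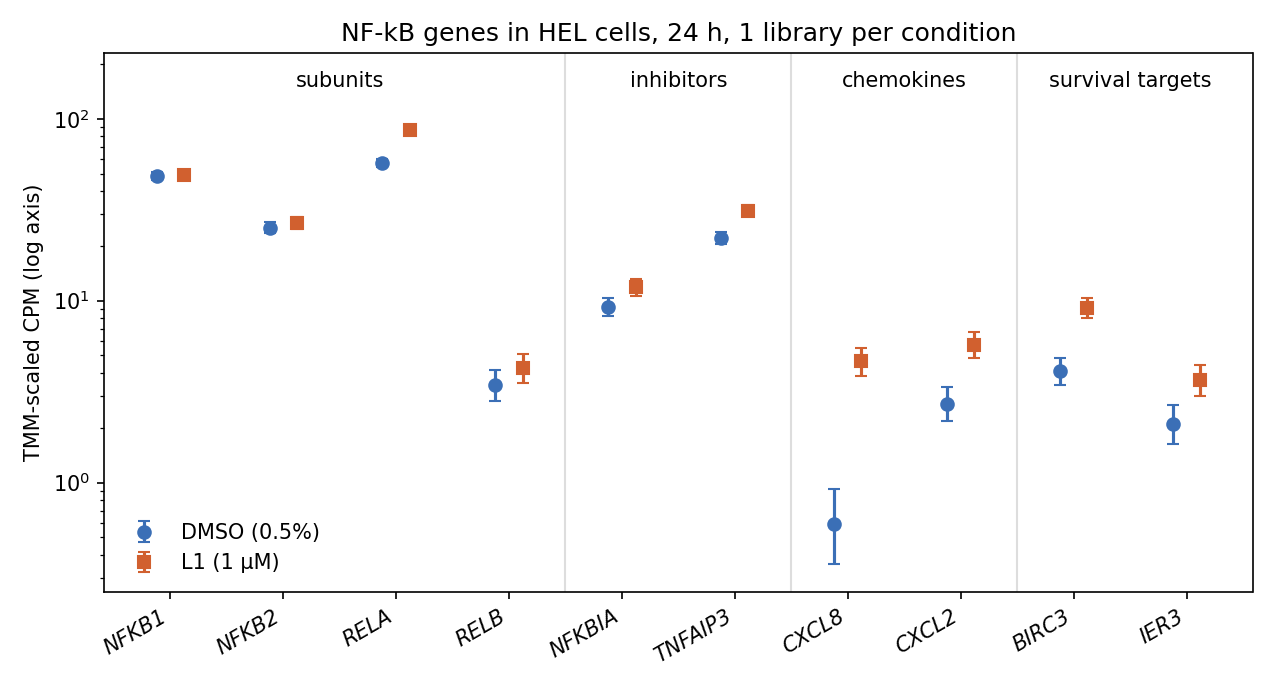
Levels in TMM-scaled CPM, on a log axis, of the 10 NF-kB genes in the DMSO library and the L1 library, with 95% Poisson counting intervals as bars and 1 library per condition. The largest gap is that of CXCL8, from 0.594 to 4.64 CPM, while NFKB1 and NFKB2 have nearly the same level in both libraries.

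Of the 10 genes, 3 (CXCL8, BIRC3 and CXCL2) were higher in L1 by 2-fold or more, against 7.12% of the genes kept, and 0 were lower by that much, against 4.83%. All 10 reached 100 counts in the higher library, and among the 12365 genes with that many counts the shares were 3.13% and 2.92%. Only CXCL8 had a whole interval past 2-fold in the higher direction, against 3.02% of the genes kept, and none of the 10 did in the lower direction, against 1.93%. The interval lay above 0 for 7 of the 10 genes, against 26.8% of the genes kept and 30.5% of those with at least 100 counts. It lay below 0 for none, against 28.6% and 36.7%. Since the genes were chosen with these ratios known, nothing is read from the counts. The median log2 ratio of the 10 genes was 0.55 with a prior count of 2.

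**Figure D3:**
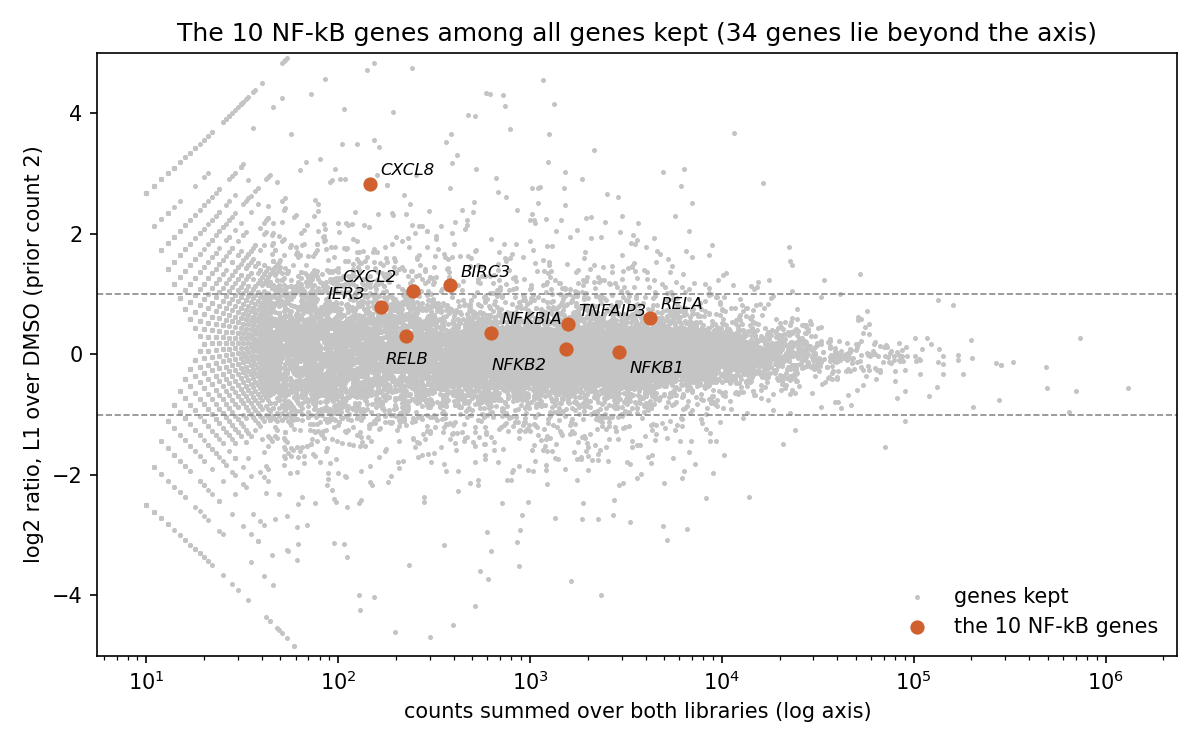
Log2 ratio of L1 over DMSO, with a prior count of 2, against the counts summed over both libraries on a log axis, for the 18123 genes kept (gray) and the 10 NF-kB genes (orange). Dashed lines mark 2-fold, CXCL8, BIRC3 and CXCL2 lie above the upper line, and the members with the most counts, RELA and NFKB1, lie inside the lines.

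The members were compared with each other by the difference of their log2 ratios, which cancels the scaling. Of 45 pairs, 29 had an interval that excludes 0, and these include all 9 pairs with CXCL8. The same share over pairs of other genes was not computed, and intervals of single genes, which hold counting error alone, already lie above 0 for 26.8% and below 0 for 28.6% of the genes kept, so nothing is read from the count of pairs. The chemokine CXCL2 and the survival genes BIRC3 and IER3 could not be ordered among themselves, since every difference between them includes 0. BIRC3 exceeded RELA (RELA minus BIRC3 -0.55, -0.88 to -0.23), and so did CXCL2 (RELA minus CXCL2 -0.47, -0.87 to -0.07). TNFAIP3 exceeded NFKB1 (NFKB1 minus TNFAIP3 -0.47, -0.65 to -0.29). These intervals are given pair by pair without adjustment and hold counting error only.

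**Figure D4:**
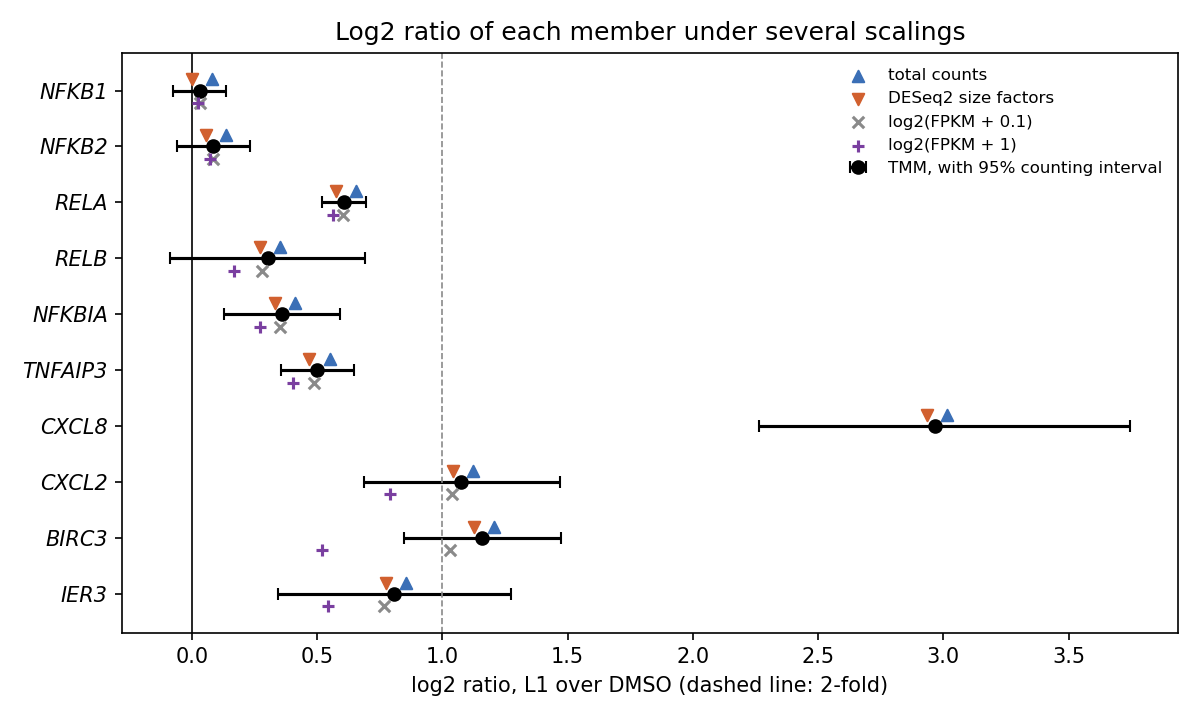
Log2 ratio of L1 over DMSO for the 10 NF-kB genes with TMM scaling and its exact 95% counting interval (black), and with total counts, DESeq2 size factors and 2 FPKM scales (colored marks, no FPKM mark for CXCL8). CXCL8 is alone to the right of 2, the TMM, total-count and DESeq2 marks of each gene nearly coincide, and log2(FPKM + 1) gives the smallest value for BIRC3 at 0.52.

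Per transcript length, RELA had the highest FPKM in each library. In DMSO the order from high to low was RELA, NFKB2, TNFAIP3, NFKB1, NFKBIA, CXCL2, IER3, RELB and BIRC3, and the counting intervals overlap between the neighbors TNFAIP3 and NFKB1, NFKB1 and NFKBIA, CXCL2 and IER3, and IER3 and RELB. In L1 the order was RELA, TNFAIP3, NFKB2, CXCL2, NFKBIA, NFKB1, IER3, RELB and BIRC3, and the intervals are separate only between RELA and TNFAIP3 and between IER3 and RELB. By FPKM, CXCL2 lay below NFKB1 in DMSO and above it in L1, with separate intervals in each library. The place of NFKB1 depends on the length used: the deposited FPKM implies 15575 bases, against 4085 bases for the principal transcript in GENCODE. With CPM per kilobase of the principal transcript, NFKB1 was next to RELA in both libraries, at 11.8 and 12.1 against 21.2 and 32.2 for RELA. CXCL2 then lay below NFKB1 in both libraries, at 2.23 in DMSO and 4.70 in L1, so the crossing is seen by FPKM only. On that scale CXCL8 was last in DMSO, at 0.348, and above RELB and BIRC3 in L1, at 2.72 against 1.85 and 1.76.

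The rest of the pathway was followed in 6 lists by role, which hold 118 genes including the 10 members. Of these, 91 were kept, 51 of the 91 (56.0%) had a log2 ratio above 0, 11 (12.1%) were higher in L1 by 2-fold or more and 4 (4.40%) lower by as much. The median of the lists together was 0.06. The 91 include the 10 members, which were chosen with their ratios known. All 10 had a ratio above 0 and 3 of them were at least 2-fold higher, so nothing is read from the shares of higher genes. Among all genes kept, 49.6% had a ratio above 0, 7.12% were higher and 4.83% lower by that much, so the share of lower pathway genes was near the background. Among genes with 100 counts or more, the shares were 3.13% higher and 2.92% lower. The lists were written with earlier results known, and the differences between them were not tested.

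At the receptor end, 15 of 24 ligand and receptor genes were kept, with 2 higher by 2-fold or more (13.3%, against 7.12% of all genes kept), 2 lower (13.3%, against 4.83%) and a median of -0.18. Both lower genes were ligands. IL1B, the inflammatory cytokine interleukin 1 beta, had counts of 203 with DMSO and 62 with L1 (log2 ratio -1.5, -1.93 to -1.08). LTB, a lymphotoxin that acts on the noncanonical branch, had 137 and 58 (-1.03, -1.5 to -0.57). TLR4, the receptor for bacterial lipopolysaccharide, had 41 and 100 counts (1.5, 0.96 to 2.06). The other higher gene, TLR1, named after its value was seen, had 23 and 54 counts (1.44, 0.72 to 2.22). Its sum with TLR6, which overlaps it on the same strand, gave 0.53. The receptors with the most counts were LTBR, with 3803 and 2889 counts (-0.18), and the TNF receptor TNFRSF1A, with 2725 and 1611 (-0.55). The ligand TNF, named for its role after its value was seen, had 2084 and 1889 counts and a log2 ratio of 0.07.

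All 25 genes of the kinases and adaptors between receptor and IkB were kept, with 3 at least 2-fold higher (12.0%, against 7.12% of all genes kept), 0 lower (against 4.83%) and a median of 0.06. MYD88, the adaptor of interleukin 1 and Toll-like receptors, had counts of 377 with DMSO and 1371 with L1, FPKM values of 2.78 and 11.7, and a log2 ratio of 2.08 (1.91 to 2.24). TRAF3, which holds back the noncanonical kinase, had 834 and 1853 counts (1.36, 1.25 to 1.48). MALT1, a protease of lymphocyte receptor signaling, had 1472 and 2978 counts (1.23, 1.14 to 1.32). The genes with the most counts were IRAK1, with 4206 and 4516 counts (0.32), and TBK1, with 3137 and 2704 (0.00). The 3 genes of the IkB kinase complex, named for their role after their values were seen, had log2 ratios of 0.06 for CHUK, -0.26 for IKBKB and 0.06 for IKBKG. The value of IKBKG is uncertain because 27.9% of its words occur in transcripts of other genes, and the sum of CHUK with its same-strand neighbor gave 0.21.

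Among the subunits, the list adds REL, which encodes c-Rel, to the 4 members. REL had counts of 111 with DMSO and 259 with L1 and a log2 ratio of 1.44 (1.11 to 1.77), but 45.4% of its words occur in transcripts of other genes, and summing it with the gene that overlaps it on the same strand gave 0.76. The inhibitor list of 14 genes also holds BCL3, NFKBID and NFKBIZ, named for their IkB family after their values were seen. What each gene of the list does to NF-kB in these cells was not measured. All 14 were kept, with a median of -0.06, and 6 had a ratio above 0. By 2-fold or more, 0 were higher (against 7.12% of all genes kept) and 2 were lower (14.3%, against 4.83%). Both lower inhibitors encode small kappa B-Ras proteins that bind IkB. NKIRAS1 had 343 and 108 counts (-1.45, -1.78 to -1.14) and NKIRAS2 had 2773 and 841 (-1.51, -1.62 to -1.40). Genes on the opposite strand, named after their sums were seen, overlap both of them: the ribosomal protein gene RPL15 for NKIRAS1, and DNAJC7 and ZNF385C for NKIRAS2. Adding these gave -1.54 for NKIRAS1 and -0.30 for NKIRAS2. Since the use of strand is not given, reads of these genes cannot be told apart, and neither sum is a check of the NKIRAS ratios. TNIP1, a partner of A20 and the inhibitor with the most counts, had 4720 and 3545 (-0.20).

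Most chemokine and cytokine targets were not detected in HEL cells. Of 20 genes, 11 were at 0 counts in both libraries, among them CXCL1 and IL6, which were named after their values were seen, and a count of 0 allows up to 0.0921 CPM in DMSO and 0.111 CPM in L1 against the total counts. Of the 6 genes kept, 5 had a ratio above 0 (against 49.6% of all genes kept), 3 were at least 2-fold higher (against 7.12%) and 0 lower (against 4.83%), with a median of 0.81. The members CXCL8 and CXCL2 are 2 of these 3. The other is IL32, named after its values were seen, with 5 counts in DMSO and 24 in L1. It reached the minimum of 10 counts only in L1, the library where it is higher. With 10 counts required in both libraries, IL32 drops out. The higher genes left in the list are then the members CXCL8 and CXCL2, which were chosen with their ratios known. Under that rule 694 of 16475 genes were at least 2-fold higher. CXCL3 had a log2 ratio of 0.57 (0.23 to 0.92), and CSF1, the macrophage growth factor with the most counts of the list, had 443 and 321 counts (-0.25). Of 30 survival and other target genes, 26 were kept, 2 were at least 2-fold higher (7.69%, near the background of 7.12%) and 0 lower (against 4.83%), with a median of 0.06. The genes with the most counts in that list, the kinase gene PIM1 with 13244 and 8694 counts (-0.39, -0.43 to -0.36) and STAT5A with 8209 and 6867 (-0.04), were not higher in L1.

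**Figure D5:**
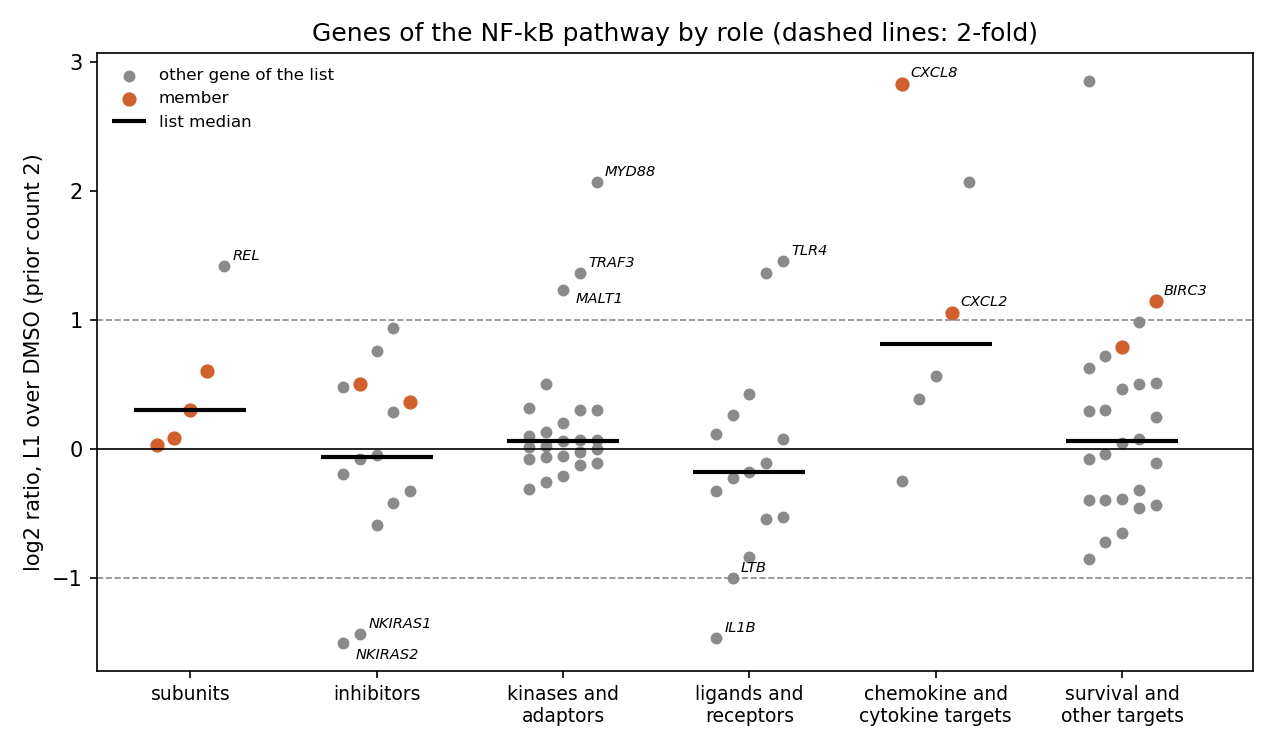
Log2 ratio of L1 over DMSO, with a prior count of 2, for every kept gene of the 6 NF-kB pathway lists, each point being 1 gene and the 10 members marked. CXCL8, MYD88 and GADD45B (the unlabelled top point of the survival list) are among the highest points, IL1B, NKIRAS1 and NKIRAS2 are the lowest, and the medians of the lists of kinases and adaptors and of survival targets are near 0.

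The decamer was spread unevenly over the lists, against 7.09% of all genes with a window. It was present in 9 of 13 chemokine and cytokine genes with a window (69.2%), 8 of 13 genes of the inhibitor list, 3 of 4 subunits and 8 of 27 survival and other targets (29.6%). In 2 of 21 kinases and adaptors (9.52%) and 2 of 20 ligands and receptors (10.0%), its share was near that of all genes. The lists were written from general knowledge of NF-kB genes, so these shares are a description. Among the kept genes that have a promoter window, the medians with and without the decamer were close to each other. The 989 kept genes with a match had a median log2 ratio of -0.02 and 6.07% were at least 2-fold higher, against a median of -0.01 and 5.19% among the 10405 kept genes whose windows had none. For at least 2-fold lower genes the shares were 3.13% with and 3.69% without. For the 9-mer, 5.93% of 675 genes with a match and 5.22% of 10719 without were at least 2-fold higher. These shares were not tested against each other.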

How the data were processed

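RNA was measured in 1 library of HEL cells with DMSO and 1 with L1. Per the labels and the submitters' processing notes, reads were trimmed with fastp 2.0 and aligned to hg38 with HISAT2 2.1.0, and StringTie is listed. The counting program, the annotation and the use of strand are not given in the sources used here. The authors deposited raw counts per Ensembl gene, without normalization. For 13924 genes, deposited FPKM values were used beside the counts.

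The 10 genes and the pathway lists were chosen with earlier results of these data known. Counts were scaled by TMM in edgeR 4.0.16 (R 4.3.3), with no model fitted, and DESeq2 1.42.0 gave size factors as an alternative. Ratios over all genes used a prior count of 2 and genes with at least 10 counts in the higher library. Single genes have no prior count. Python 3.11.15 with numpy 2.4.6, pandas 2.3.3, scipy 1.17.1 and matplotlib 3.10.9 was used for the rest. The scripts were tested on simulated data.

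Gene symbols came from the FPKM files (12928 genes), the gene name table (48833) and GENCODE release 29 (43), which holds 58254 of the 61806 identifiers. The genes named were the 10 members and their exon-overlapping neighbors. In each pathway list, genes that reached 100 counts in the higher library and were 2-fold apart or more were named too, with the 2 genes of most counts. Genes named outside this rule are marked. Sums with opposite-strand genes or paralogs, the background of genes with 100 counts, levels per kilobase of the principal transcript, the differences between pairs of members and the split of genes by motif were added after the data were seen.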

Additional observations from a re-analysis of the deposited data

How the results depend on the processing

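The ratios of the 10 genes were recomputed with total counts, DESeq2 size factors, upper quartile scaling, 2 FPKM scales and sums with overlapping or paralogous genes. Of 62 values, 61 stayed within the counting interval of the reported ratio, 0 reversed, and 1 left it, BIRC3 on log2(FPKM + 1), at 0.52. Many of the 62 had little room to move. No member has an overlapping gene on the same strand, so those sums repeat the reported ratio. Each library scaling shifts all 10 genes by the same amount, so nothing is read from the tally. The count of members at least 2-fold higher, 3 as reported, was 0 on log2(FPKM + 1), which leaves out CXCL8 and on which 199 of all 13924 genes were higher. It was 1 when the whole interval had to pass 2-fold, against 3.02% of the genes kept. At a threshold of 1.5-fold it was 5, but the share over all genes was not computed there, so nothing is read from it. Of the pathway genes, 11 were higher by 2-fold or more and 4 lower as reported, against 7.12% and 4.83% of the genes kept. The 11 include the 3 members counted above, which were chosen with their ratios known. With log2(FPKM + 1) these were 2 and 1, against 199 and 153 of the 13924 genes with FPKM values. At 1.5-fold they were 18 and 9, with no share over all genes computed. With log2(FPKM + 0.1) 6 were higher, against 348 of the 13924. With the whole interval past 2-fold 7 were higher, against 3.02% of the genes kept. The FPKM alternatives cover fewer genes and their added constant shrinks low ones. The median of the members ran from 0.40 to 0.60. No paired analysis was possible because both conditions come with a single library. Depth limits RELB, CXCL8 in DMSO, CXCL2 and IER3 most, and the spread between cultures was not measured at any depth.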

Other observations

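Some pathway genes outside the naming rule were picked out after their values were seen. GADD45B, a stress gene that NF-kB can induce, had counts of 11 with DMSO and 80 with L1 and a log2 ratio of 3.08 (2.16 to 4.13). IL32, a cytokine, had 5 and 24 counts (2.48, 1.06 to 4.22). XIAP, a caspase inhibitor of the same family as BIRC3, had 106 and 183 counts (1.00, 0.65 to 1.36), with 11.1% of its words found in transcripts of other genes. The IkB family members had ratios on both sides of 0. NFKBIB had 915 and 1510 counts (0.94, 0.82 to 1.06), but 9.29% of its words occur in transcripts of other genes and its sum with SIRT2 on the opposite strand gave 0.45. NFKBIZ had 285 and 417 (0.76, 0.54 to 0.98), and NFKBIE had 456 and 549 (0.48, 0.30 to 0.66). NFKBID had 370 and 211 counts (-0.60, -0.85 to -0.35), and BCL3 had 305 and 196 (-0.42, -0.69 to -0.16). TLR1 had 23 and 54 counts (1.44, 0.72 to 2.22), and its sum with TLR6, which overlaps it on the same strand, gave 0.53. These intervals cover counting error only and none of the values has a replicate check.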
